A study of Mus musculus with 6 samples.

Results

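A set of 10 genes of the Notch pathway were described in mouse livers with and without Arid1a in hepatocytes: the receptors Notch1, Notch2 and Notch3, the ligands Jag1 and Dll4, the effectors Hes1, Hey1 and Heyl, and the nuclear factors Rbpj and Maml1. They were chosen by name in the deposited expression table, which gives 1 value per gene and library, and 9 of the 10 names had a row among 14499 genes, each with a single row. The expression of Notch3 was not analysed here. Both groups were total liver RNA of mice of a mixed C57Bl/6; 129Sv background, 10 weeks old, after 2 weeks of injury with DDC, a porphyrinogenic compound that obstructs small bile ducts and brings a ductular reaction. The wild-type group (WT_DDC) and the knockout group (Arid1a_KO_DDC; labelled as a knockout of Arid1a specific to hepatocytes) had 3 libraries each, and uninjured livers were not analysed here. ARID1A is a DNA-binding subunit of the BAF complex, a remodeller of nucleosomes. The labels do not name the Cre line or vector, and they leave unsaid how many mice the libraries stand for. The spread behind every p-value is thus that of these libraries, which may in part be technical.

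Notch receptors sit on the cell surface and are engaged by ligands of the Jagged and Delta-like families on a neighbouring cell. An ADAM protease and then the gamma-secretase complex cut the bound receptor, and the freed intracellular domain enters the nucleus, joins the DNA-binding protein RBPJ and a Mastermind co-activator, and switches on repressor genes of the HES and HEY families. In liver the pathway is best known for Jag1 and Notch2, which are needed for bile ducts to form, and for Dll4 and Notch1 in endothelium.

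The 6 libraries had 11280 to 11712 genes with at least 1 FPKM (fragments per gene, scaled by transcript length and by the mapped fragments of the library), and their absolute depth is unknown. Relative to WT_DDC replicate 1, steps between low values put the depth of the other libraries at 0.906 to 1.16. Only ratios near 1 were searched, and the most frequent ratio was shared by 8 to 24 of 179 to 219 pairs, so these depths are rough. Replicate 1 of both groups carries library numbers L0566 and L0567, the other libraries L0602 to L0605, and the Y-linked gene Ddx3y was at 0.0227 and 0.0527 FPKM in replicate 1 and at 9.27 to 11.3 FPKM in the others. The second principal component of the tested genes, with 29.4% of the variance, separated replicate 1 from the rest. Hepatocyte markers were abundant in every library, with Alb at 26589 to 34012 FPKM. Genotypes were compared by limma on log2(FPKM + 1) over the 11839 genes with at least 1 FPKM in at least 3 libraries, with Benjamini-Hochberg adjustment over all of them. The added 1 shrinks the log2 differences of weakly expressed genes.

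None of the 6 tested Notch genes passed the comparison of knockout with wild type, and the largest difference was that of Hes1, the effector gene, whose level in knockout livers was 0.504 of that in wild type. Of the 9 genes with a row, 6 passed the filter on low values (Notch1, Notch2, Hes1, Heyl, Rbpj and Maml1), and 0 of these were called at an adjusted p under 0.05, where 0.49% of all tested genes were called. At an unadjusted p under 0.05 limma gave 1 of the 6, Hes1, against 11.1% of all tested genes. Hes1 was also the 1 gene of the 6 whose groups did not overlap, against 16.6% of all tested genes. All 6 differences were below 0, with a median of -0.20, against 49.4% below 0 and a median of 0.0034 over all tested genes. An exact two-sided permutation test of FPKM, 3 libraries against 3, cannot give a p below 0.1. It gave 0.1 for Hes1 and 0.3 to 0.9 for the other 8 genes.

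**Figure D1:**
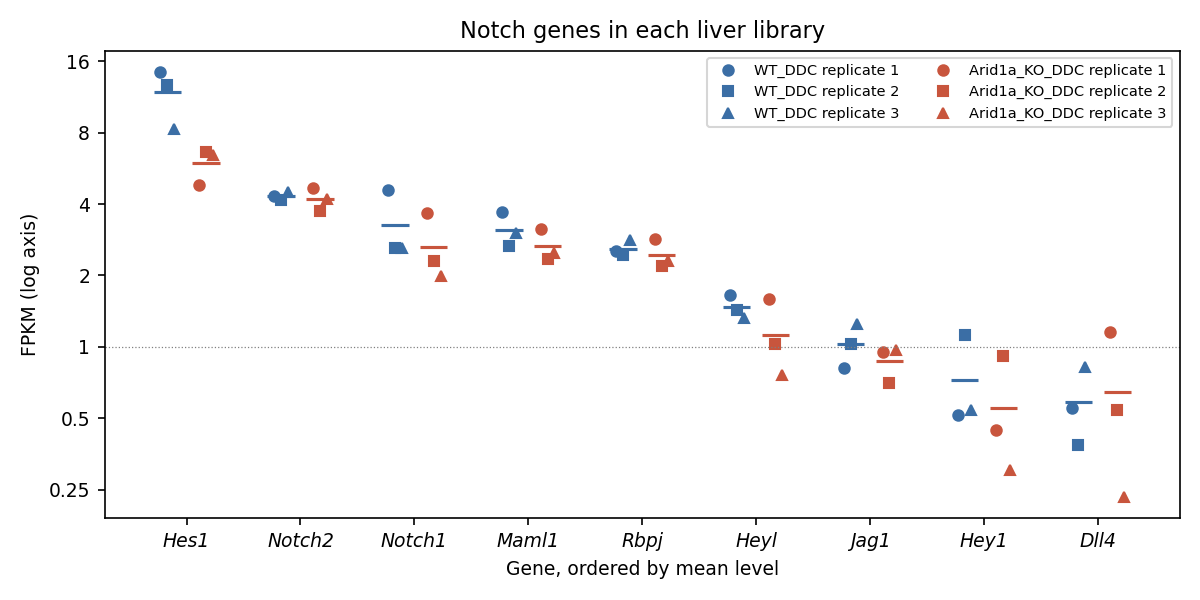
FPKM on a log axis of the 9 Notch genes in each of the 6 liver libraries, ordered by mean level, with 1 point per library and a line at the mean of each group of 3. Wild type is blue and knockout red, and the dotted line marks 1 FPKM; the groups are separate for Hes1 and overlap for the other 8 genes.

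By level, Hes1 stood first with a mean of 8.88 FPKM over the 6 libraries, above 53.2% of the tested genes. Notch2 followed at 4.26 FPKM, and the range of Hes1, 4.79 to 14.4 FPKM, lay above that of Notch2, 3.74 to 4.68 FPKM. Notch1, Maml1 and Rbpj came next at 2.96, 2.89 and 2.52 FPKM. Notch1 was above Maml1 in 2 of 6 libraries, so their order is not settled by these data. Maml1 was above Rbpj in all 6 libraries. Heyl was at 1.30 FPKM, below Rbpj with no overlap of ranges. Jag1, Hey1 and Dll4 were at 0.952, 0.639 and 0.615 FPKM, with ranges that overlapped, and Hey1 was above Dll4 in 3 of 6 libraries.

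Of the receptors, Notch2 was the most even gene and Notch1 the more variable. Notch2 (chromosome 3, 98013527 to 98150361 on GRCm38; all 9 genes are annotated as protein coding) stood at 4.34, 4.15 and 4.48 FPKM in wild-type replicates 1, 2 and 3, while the knockout libraries, in the same order, had 4.68, 3.74 and 4.18 FPKM. The groups overlapped, and the highest library was 1.25 times the lowest. The log2 difference was -0.04 with a 95% confidence interval of -0.36 to 0.29 (SE 0.14, limma adjusted p = 0.943). Notch1 (chromosome 2, 26457903 to 26516663) was at 4.60, 2.60 and 2.61 FPKM in wild type and at 3.66, 2.29 and 1.98 FPKM in knockout. Replicate 1 was the highest library of each genotype, and the groups overlapped (log2 difference -0.22, SE 0.25, interval -0.83 to 0.38, adjusted p = 0.791). The difference was -0.0116 without WT_DDC replicate 1, -0.41 without Arid1a_KO_DDC replicate 1 and -0.0912 without Arid1a_KO_DDC replicate 3. The wide interval of Notch1 holds differences of more than 0.8 log2 units downward. Notch4, an endothelial receptor outside the chosen genes, had means of 0.974 ± 0.197 FPKM (wild type) and 1.01 ± 0.296 FPKM (knockout; SD, n = 3 libraries each).

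Notch2 made up the largest part of the receptor transcripts in 5 of 6 libraries. Of the summed FPKM of Notch1, Notch2 and Notch4, Notch2 held 50.8% ± 5.33 in wild type and 53.6% ± 2.23 in knockout (SD, n = 3; exact permutation p = 0.6). Notch1 held 47.5% in wild-type replicate 1, the 1 library where it exceeded Notch2, and 26.4% to 40.1% in the other libraries. The summed receptor level was 8.56 ± 0.979 and 7.86 ± 1.13 FPKM (exact permutation p = 0.5). The shares of wild-type and knockout libraries overlapped for all 3 receptors.

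**Figure D2:**
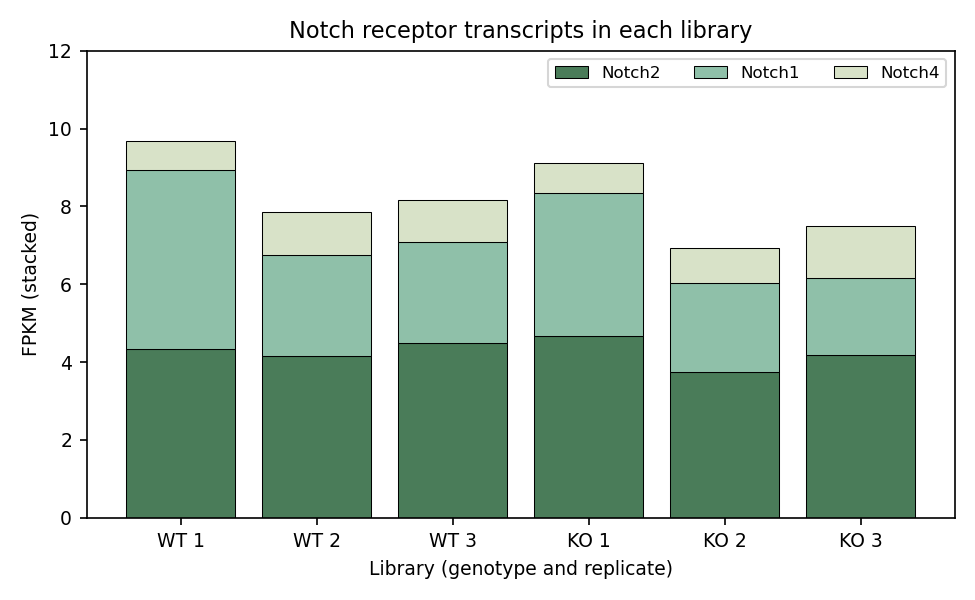
Stacked FPKM of Notch2, Notch1 and Notch4 in each library, by genotype and replicate (WT, wild type; KO, knockout). The total is 6.94 to 9.68 FPKM, and Notch1 is the receptor that varies most, with its tallest segments in replicate 1 of both genotypes.

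The ligands Jag1 and Dll4 were near or below 1 FPKM and did not pass the filter on low values. Jag1 (chromosome 2, 137081456 to 137116644), the ligand linked to bile duct formation, was at 0.811, 1.03 and 1.25 FPKM in wild type and at 0.950, 0.702 and 0.973 FPKM in knockout. Fitted with no filter, its log2 difference was -0.11 with an interval of -0.39 to 0.17 (adjusted p = 0.755). Dll4 (chromosome 2, 119325784 to 119335962), the ligand of endothelial tip cells, was at 0.551, 0.387 and 0.823 FPKM in wild type and at 1.15, 0.542 and 0.234 FPKM in knockout. Its highest and lowest libraries were both knockouts, 4.93 times apart, and with no filter the difference was 0.02 (interval -0.55 to 0.59, adjusted p = 0.996).

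Dll1, a further Delta-like ligand that is not among the chosen genes, was more abundant than Jag1 and Dll4 in every library. It was at 3.48, 3.26 and 1.90 FPKM in wild type and at 4.95, 3.65 and 4.23 FPKM in knockout. All 3 knockout libraries lay above the wild-type ones, but the difference did not pass the test (0.46, SE 0.21, adjusted p = 0.481; 0.27 without WT_DDC replicate 3). A lincRNA gene, A930024N18Rik, overlaps Dll1 on the opposite strand, and whether reads were counted by strand is not given in the sources used here.

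Hes1 (chromosome 16, 30064384 to 30067796), a repressor that is a direct target of the Notch complex and is also induced by other signals, was at 14.4, 12.7 and 8.31 FPKM in wild-type replicates 1, 2 and 3. In knockout replicates 1, 2 and 3 it was at 4.79, 6.65 and 6.42 FPKM. Every knockout library was below every wild-type library, and the nearest values, 8.31 and 6.65 FPKM, came from wild-type replicate 3 and knockout replicate 2. The means were 11.8 ± 3.15 and 5.95 ± 1.01 FPKM (SD, n = 3), and the log2 difference was -0.86 with an interval of -1.40 to -0.32 (SE 0.23, unadjusted p = 0.00694, limma adjusted p = 0.229). The difference therefore did not pass over all genes. Within replicate 1, with 1 library of each genotype, it was -1.41, and in replicates 2 and 3 it was -0.59. The difference between these values, as an interaction term, did not pass (-0.83, adjusted p = 0.585).

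The log2 difference of Hes1 was below 0 under all 17 alternatives, from -1.08 to -0.59, and its adjusted p was 0.178 to 0.494. With 1 library left out it ran from -1.08 without WT_DDC replicate 3 to -0.71 without WT_DDC replicate 1. It was closest to 0 in libraries L0602 to L0605 alone.

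**Figure D3:**
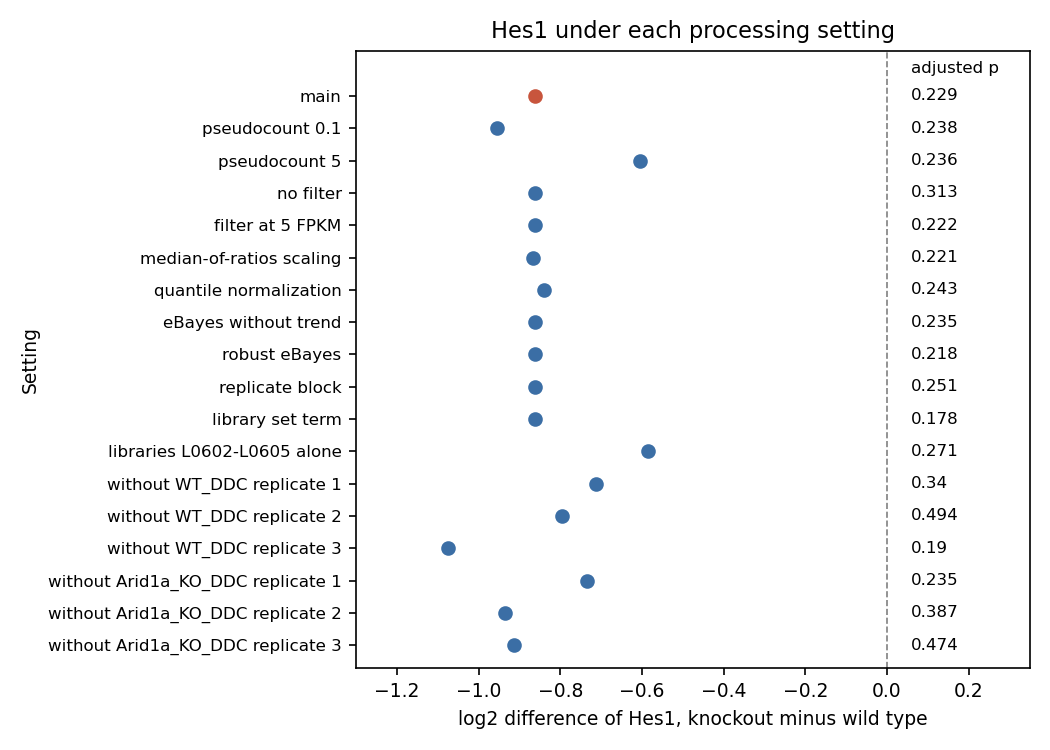
Log2 difference of Hes1, knockout minus wild type, under each processing setting, with the limma adjusted p at the right; the red point is the value reported in the text and the blue points are alternatives. All points lie below 0, between -1.08 and -0.59, and no adjusted p is under 0.05.

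The groups overlapped for both HEY effectors. Heyl (chromosome 4, 123233556 to 123249875), known from vascular mural cells, was at 1.66, 1.43 and 1.32 FPKM in wild type and at 1.59, 1.02 and 0.760 FPKM in knockout. The overlap came through knockout replicate 1 (log2 difference -0.23, SE 0.19, interval -0.68 to 0.22, adjusted p = 0.7), and the difference was -0.39 without that library and -0.11 without Arid1a_KO_DDC replicate 3. Hey1 (chromosome 3, 8663359 to 8667256), an effector known from endothelium, did not pass the filter. It was at 0.515, 1.12 and 0.542 FPKM in wild type and at 0.445, 0.913 and 0.304 FPKM in knockout, with replicate 2 the highest of each genotype. With no filter its difference was -0.15 (interval -0.65 to 0.35, adjusted p = 0.82). Whether the difference of Hes1 is larger than that of Hey1 or Heyl was not tested.

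The groups overlapped for both nuclear factors. Rbpj (chromosome 5, 53466152 to 53657362), the DNA-binding factor of the complex, was at 2.55, 2.44 and 2.81 FPKM in wild type and at 2.84, 2.19 and 2.29 FPKM in knockout (log2 difference -0.07, SE 0.15, interval -0.42 to 0.28, adjusted p = 0.898). Maml1 (chromosome 11, 50255634 to 50292311), a Mastermind co-activator, was at 3.69, 2.65 and 3.01 FPKM in wild type and at 3.15, 2.34 and 2.49 FPKM in knockout (-0.17, SE 0.17, interval -0.56 to 0.23, adjusted p = 0.755). Replicate 1 was the highest knockout library for both genes. With 1 library left out, Rbpj ranged from -0.15 (without Arid1a_KO_DDC replicate 1) to -0.0154 (without Arid1a_KO_DDC replicate 2) and Maml1 from -0.26 (without Arid1a_KO_DDC replicate 1) to -0.0703 (without WT_DDC replicate 1). Antisense genes overlap Rbpj and Maml1, and opposite-strand transcripts overlap Notch1 and Dll4, so without strand their reads cannot be told apart.

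Several of these genes were highest in replicate 1 of both genotypes. The highest library was a replicate 1 library for 7 of the 9 genes, and over all tested genes this was so for 33.9%. The lowest library was knockout replicate 2 or 3 for 8 of the 9, and for 32.9% of all tested genes. These genes were not chosen independently of each other, so the shares are a description. With a genotype term in the fit, replicate 1 was above the other replicates by 0.60 log2 units for Notch1 (SE 0.13, limma adjusted p = 0.107), by 0.31 for Heyl (adjusted p = 0.313) and by 0.03 for Hes1 (adjusted p = 0.949). None of these passed, in a contrast where 0.127% of the tested genes were called. The endothelial genes Cdh5 and Kdr had values of 1.04 and 1.03 in the same contrast (adjusted p = 0.117 and 0.112). They were chosen after their values were seen, and endothelial Pecam1 had a smaller value of 0.34 (adjusted p = 0.492). Other endothelial genes went the other way. Notch4 was lowest in replicate 1 of each genotype (wild type 0.747, knockout 0.784 FPKM). Vwf was lowest in replicate 1 among wild-type libraries only (4.39 against 5.88 and 6.16 FPKM).

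The likeness of 2 genes over the 6 libraries was measured as the root mean square distance between their standardised log2(FPKM + 1) values. By this distance Notch2 and Rbpj were the closest pair of the 6 tested genes (0.347), followed by Notch1 and Maml1 (0.350) and Notch1 and Heyl (0.470). Hes1 was the farthest from the rest, at 0.992 or more from each of the other 5. Of 11838 other genes, those nearest to Hes1 were Tpd52l2 (0.168), Sergef (0.213) and Gm19950 (0.216). Tpd52l2 was at 35.2, 33.6 and 29.4 FPKM in wild type and at 20.2, 24.0 and 23.4 FPKM in knockout, and it did not pass the genotype test either (adjusted p = 0.235).

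Other genes of the pathway did not pass singly. They were taken from 6 lists of receptors and ligands, cleavage enzymes, glycosyltransferases, trafficking factors, nuclear cofactors and further genes linked to Notch. Of 63 names, 52 had a row and 47 were tested. Limma called 0 higher and 0 lower, against 0.135% and 0.355% of all tested genes. Without adjustment, p was under 0.05 for 1 higher and 4 lower genes, against 4.65% and 6.5% of all tested genes. Groups did not overlap for 4 higher and 10 lower genes, against 7.09% and 9.56% of all tested genes. The median difference was -0.03, with 28 of 47 below 0.

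**Figure D4:**
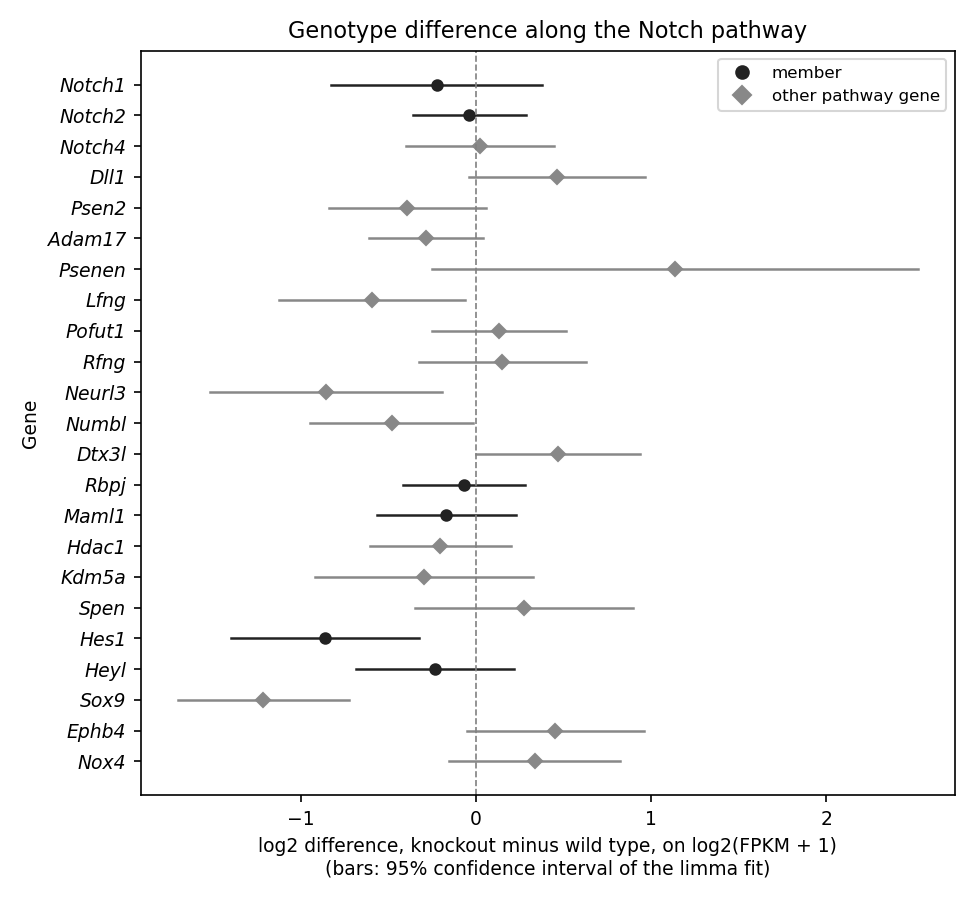
Log2 difference, knockout minus wild type on log2(FPKM + 1), with its 95% confidence interval from limma. Black circles are the 6 tested Notch genes and grey diamonds are named genes of the wider pathway. Receptors are at the top, and effectors and further genes linked to Notch at the bottom. Most intervals cross 0. Those of Hes1, Sox9, Neurl3, Lfng and Numbl lie below it and that of Dtx3l lies just above it, and none of the genes shown passed the adjusted threshold.

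Of 8 tested genes that cut the receptor or prepare it, 0 were called, against 0.49% of all tested genes. Below 0 were 6 of the 8, with a median of -0.08. Groups did not overlap for 3 lower genes (Psen2, Adam17 and Adam10) and 1 higher gene (Psenen), where 9.56% and 7.09% of all tested genes were separate in these directions. Psen2, a catalytic subunit of gamma-secretase, was at 290 ± 14.6 and 224 ± 47.1 FPKM, and Adam17, a sheddase, at 7.08 ± 0.341 and 5.65 ± 0.633 FPKM (SD, n = 3; adjusted p = 0.5 each). Without Arid1a_KO_DDC replicate 1 the log2 difference of Psen2 moved from -0.39 to -0.20. Adam10, the sheddase of ligand-bound receptors, ranged over 8.18 to 8.36 FPKM in wild type and 6.88 to 8.11 FPKM in knockout. Psenen, a further gamma-secretase subunit, was at 86.9, 109 and 121 FPKM in wild type and at 644, 139 and 138 FPKM in knockout. Knockout replicate 1 stood apart, and the log2 difference of 1.14 (adjusted p = 0.532) was 0.40 without it. The gene U2af1l4 overlaps Psenen on the opposite strand.

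Of the 4 tested glycosylation genes, Lfng had the smallest p. It encodes lunatic fringe, which adds a sugar to the receptor and so sets which ligands it answers to. It was at 4.80, 3.59 and 4.07 FPKM in wild type and at 3.22, 2.68 and 1.53 FPKM in knockout, with no overlap, and did not pass (-0.59, SE 0.22, adjusted p = 0.393; -0.38 without Arid1a_KO_DDC replicate 3). Pofut1 and Rfng, an O-fucosyltransferase and another fringe, had differences of 0.13 and 0.15 (adjusted p = 0.802 and 0.822).

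Promoter windows from RefSeq (GRCm38.p6, 250 bases before to 50 after each start) were searched on both strands for GTGGGAA, the core of the known RBPJ site. It occurred in 6.38% of 32851 windows. Counted by gene, some with several windows, 7.25% of 27025 genes had a match, as did 8 of 56 pathway genes with an entry and 5 of the 44 of these that were measured. None of the 7 chosen genes with an entry, Notch3 among them, held it in this window, which says only that these letters are not there, and Hes1, Hey1 and Heyl had no entry. Lfng was the 1 gene among the glycosyltransferases with a match, and its upstream bases, chr5:140607091-140607319 on the plus strand, are shown 5′ to 3′ with the match in capitals as an example; it was chosen after its values were seen. Psen2, also with separate groups, had a match in 1 of its 2 windows. The other measured genes with a match, Aph1a, Spen and Nox4, had overlapping groups, at log2 differences of -0.03, 0.27 and 0.34. The match in Lfng starts 109 bases before the RefSeq start and is a description, not a shown binding site. The bases shown stop at 140607319, just before the GENCODE start at 140607320, and so short of the RefSeq start.
Lfng: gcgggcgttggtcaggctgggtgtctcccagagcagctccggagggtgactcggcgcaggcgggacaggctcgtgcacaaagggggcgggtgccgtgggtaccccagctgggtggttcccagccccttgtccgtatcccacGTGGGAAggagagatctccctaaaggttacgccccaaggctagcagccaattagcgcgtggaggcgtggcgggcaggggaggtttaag

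Among 12 tested factors of ligand and receptor trafficking, 9 were below 0, against 49.4% of all tested genes, with a median of -0.12. Groups did not overlap for 5 lower genes and 1 higher gene, against 9.56% and 7.09% of all tested genes. Neurl3, a ubiquitin ligase of the Neuralized family, was at 9.44, 13.6 and 9.43 FPKM in wild type and at 7.45, 6.29 and 3.36 FPKM in knockout (log2 difference -0.86, SE 0.28, adjusted p = 0.319). Numbl, a Numb-like adaptor, had a difference of -0.48 (adjusted p = 0.43). Dtx3l, a Deltex-family ubiquitin ligase that is also induced by interferon, was at 5.08 ± 0.0415 and 7.58 ± 1.96 FPKM (0.47, adjusted p = 0.447), with knockout replicates 2 and 3 at 8.94 and 8.48 FPKM and replicate 1 at 5.33 FPKM.

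Of 14 tested nuclear cofactors, 7 were below 0, with a median of 0.0026. Groups were free of overlap for 0 of 14, against 16.6% of all tested genes, and the smallest adjusted p was 0.707, that of Hdac1, a deacetylase of co-repressor complexes (-0.20). The demethylase Kdm5a was at -0.29 (adjusted p = 0.721; -0.0056 without WT_DDC replicate 1) and the co-repressor Spen at 0.27 (adjusted p = 0.747).

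Of 7 tested further genes linked to Notch, Sox9 had the largest difference, and it is also a marker of biliary cells. In which direction Notch acts on these 7 genes in liver was not tested. Sox9 was at 2.76, 3.79 and 4.93 FPKM in wild type and at 1.18, 0.819 and 1.15 FPKM in knockout, with no overlap (-1.21, SE 0.21, adjusted p = 0.0815). Ephb4, a venous ephrin receptor, and Nox4, an NADPH oxidase, had differences of 0.45 and 0.34 (adjusted p = 0.487 and 0.608).

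**Figure D5:**
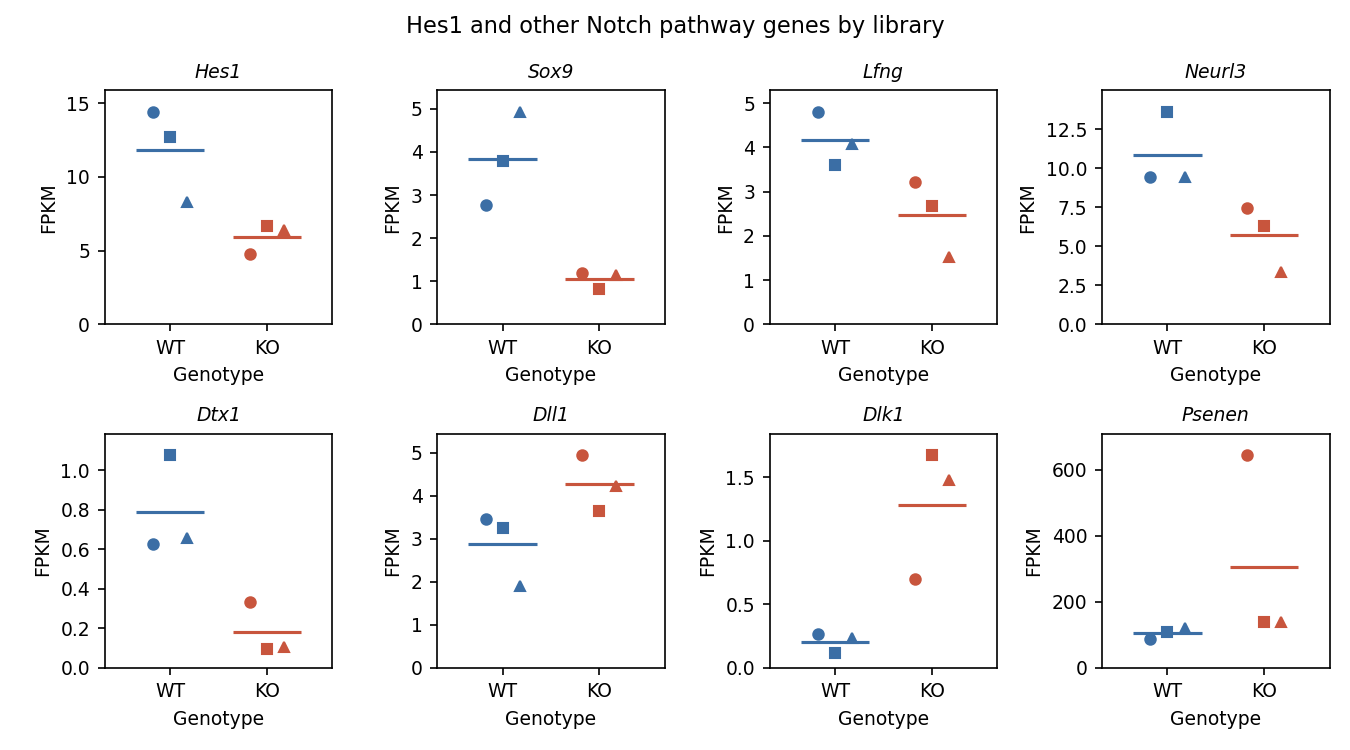
FPKM on linear axes from 0 of Hes1 and 7 other pathway genes in wild-type (WT) and knockout (KO) libraries, with circles, squares and triangles for replicates 1, 2 and 3 and lines at group means. The groups do not overlap in any panel; they were picked for display after their values were seen, none passed the adjusted threshold, and the Psenen mean rests on knockout replicate 1 at 644 FPKM.

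Since the RNA came from whole liver, fewer cells of a type and less RNA per cell cannot be told apart, and marker genes were set beside the Notch genes. Of 13 tested biliary markers, 3 fell, where 0.355% of all tested genes were called lower: Ddr1, a collagen receptor, by 1.66, Cldn4, a tight junction protein, by 1.42 and Krt23, a keratin, by 1.99 log2 units (limma adjusted p = 0.0317, 0.0386 and 0.0447, and 0.0292 to 0.175 over the alternatives). Groups did not overlap for 6 of the 13, all lower in knockout, against 9.56% of all tested genes. The list had 11 of 13 below 0 and a median of -0.67, against 49.4% below 0 over all tested genes. Its summed FPKM was 207 to 467 in wild type and 255 to 457 in knockout, and Spp1 alone made up 52.2% to 88.8% of it. Without Spp1 the sum was 107 ± 10.5 and 62.7 ± 12.8 FPKM (SD, n = 3; exact permutation p = 0.1), with no overlap.

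Against the biliary sum of the same library, the log2 ratio of Hes1 was -4.84 ± 0.882 in wild type and -5.80 ± 0.478 in knockout (SD, n = 3; exact permutation p = 0.2), a difference of -0.96. Without WT_DDC replicate 1 it was -0.46 and without WT_DDC replicate 3 it was -1.28. Against the sum without Spp1, chosen after seeing the data, the difference was -0.17 (exact permutation p = 0.7). The ratio of Jag1 to the biliary sum differed by -0.22 (exact permutation p = 0.4) and by 0.56 without Spp1 (exact permutation p = 0.2). With the mean log2(FPKM + 1) of the list, Spp1 included, in place of the sum, the difference for Hes1 was -0.12. So the value of Hes1 relative to biliary markers depended on how the list was summarised. The part of biliary cells in the level of Hes1 was not tested.

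Endothelial markers had 10 of 11 tested below 0, with a median of -0.33, and 0 were called, against 0.49% of all tested genes. They had separate groups for 1 of the 11, lower in knockout, against 9.56% of all tested genes. Their summed FPKM was 98.2 to 145 in wild type and 65.2 to 141 in knockout, and no marker of this or the other cell type lists was at 0. Stab1, Vwf and Pecam1 were at -0.61, -0.50 and -0.48 (adjusted p = 0.314, 0.546 and 0.568). The log2 ratio of Notch1 to this sum was -5.30 ± 0.469 and -5.23 ± 0.171 (SD, n = 3; exact permutation p = 0.9), a difference of 0.07 within a wide spread. For Dll4 the ratio was -7.79 ± 0.289 and -7.51 ± 0.596 (exact permutation p = 0.7).

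Stellate and mural markers had 11 of 13 below 0, with a median of -0.52, and 0 were called, against 0.49% of all tested genes. Their sums were 264 to 374 FPKM in wild type and 178 to 296 FPKM in knockout. Groups did not overlap for 3 of the 13, all lower in knockout, against 9.56% of all tested genes. Pdgfra, Acta2 and Des were at -0.74, -0.81 and -0.40 (adjusted p = 0.213, 0.443 and 0.474). The log2 ratio of Heyl to this sum was -7.82 ± 0.291 and -7.77 ± 0.204 (SD, n = 3; exact permutation p = 1). The 5 ratios to marker sums had an exact permutation p of 1 each after Benjamini-Hochberg adjustment. Macrophage markers were at 483 to 652 and 300 to 425 FPKM in sum, with no overlap (exact permutation p = 0.1). Of 9 tested, 9 were below 0, with a median of -0.73, and 0 were called, against 0.49% of all tested genes. Singly, 4 of the 9 had separate groups, all lower in knockout, against 9.56% of all tested genes. Csf1r, Lyz2 and Cd163, a growth factor receptor, a lysozyme and a scavenger receptor, were at -0.77, -0.86 and -0.85 (adjusted p = 0.202, 0.25 and 0.375), and Lyz2 passed without Arid1a_KO_DDC replicate 1 (-1.13, adjusted p = 0.0448).

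Hepatocyte markers were at 42217 to 44597 FPKM in sum in wild type and at 44863 to 55284 FPKM in knockout, with no overlap (exact permutation p = 0.1). Most of this sum was Alb, whose groups overlapped (log2 difference 0.097). Of the 12 markers 0 were called, against 0.49% of all tested genes, 4 were below 0 and the median was 0.096. Groups did not overlap for 3, all higher in knockout, against 7.09% of all tested genes. These were the lectin receptor subunits Asgr2 and Asgr1, at 0.81 and 0.47, and the carrier protein gene Ttr, at 0.60 (adjusted p = 0.27, 0.357 and 0.315). The largest difference of the list went the other way, that of Cyp2e1 at -1.29, with overlapping groups (limma adjusted p = 0.43). The part of these cell types in the levels of the Notch genes was not tested.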

How the data were processed

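Liver RNA of 6 libraries was available as a single table in which the authors deposited log2 FPKM for 14499 genes. The programs TopHat2 2.0.6 and Cufflinks and the builds mm10 and GRCm38 are named, per the submitters' processing notes, without order or annotation. How genes were chosen for the table is not stated there. The lowest log2 value, -10, marks an FPKM of 0, so an offset of 0.000977 was removed to recover FPKM (checked on 60079 values, of which 100% then had 6 significant digits within a relative tolerance of 3e-08). FPKM are not counts, so limma 3.58.1 in R 4.3.3 (eBayes with a trend, two-sided, threshold 0.05) was run on log2(FPKM + 1). On simulated data it recovered 56 of 100 genes changed by 1 log2 unit and 94 of 100 changed by 2. The changed genes were drawn from levels above those of the tested Notch genes other than Hes1, so lower levels were not covered. No count model, interval of counting error or set test was used.

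Members, lists and tests were chosen with earlier results of these data known. All members were named. Of each further list, the up to 3 genes with the smallest p were named. Dtx1, Dlk1, Cdh5, Kdr, Adam10 and Cyp2e1 were chosen after their values were seen. Alternatives were pseudocounts of 0.1 and 5, no filter, a filter at 5 FPKM, 2 other scalings, 2 other variance models, a replicate block, a library-set term, L0602 to L0605 alone and each library left out. The motif search planned for HES and HEY promoters was extended to all pathway genes with an entry. Notch3 was to enter the receptor shares and a ratio to mural markers; both were made without it. Positions are from GENCODE M21 on GRCm38.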

Additional observations from a re-analysis of the deposited data

Results flagged for a closer look

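For Jag1, Rbpj, Pecam1 and Kdr, the difference in replicate 1 was opposite in sign to that in replicates 2 and 3. Knockout and wild type were separate in replicates 2 and 3 for these 4. The share of all tested genes with this pattern was not computed. Other genes of the lists also had it, among them Aph1a, Krt19 and Stab2, so the count of 4 is only a description. Jag1 had a log2 difference, knockout minus wild type, of 0.11 in replicate 1 and -0.22 in replicates 2 and 3; it did not pass the filter, and this contrast between replicates was not tested for it. Rbpj had 0.11 and -0.16, Pecam1, an endothelial adhesion molecule, 0.18 and -0.81, and Kdr, an endothelial growth factor receptor, 0.14 and -0.43. The interaction terms, 0.27 for Rbpj, 0.995 for Pecam1 and 0.57 for Kdr, did not pass in limma (adjusted p = 0.774, 0.533 and 0.693). Replicate 1 is 1 library per genotype, and it carries other library numbers and lacks the Y-linked transcript, so these features cannot be told apart.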

How the results depend on the processing

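No Notch gene and no gene of the 6 further lists was called under any of the 17 alternatives. Over the 38 log2 differences of tested genes, 597 of 627 alternative values kept sign and side of the threshold and 5 changed sign: Notch2 was at 0.0193 with quantile normalization and -0.10 to 0.0279 with 1 library left out, Notch4 at -0.0925 to 0.11 and Rfng at -0.012 to 0.30. With 1 library left out the receptor shares also changed sign, at -7.82 to 0.633 percentage points for Notch1, -0.25 to 4.80 for Notch2 and -0.794 to 3.88 for Notch4. So did the log2 ratios of Notch1 (-0.18 to 0.29) and Dll4 (-0.0042 to 0.59) to endothelial markers and of Heyl to mural markers (-0.10 to 0.19). The ratio of Jag1 to biliary markers was 0.63 with the mean of the list and 0.56 without Spp1. Same-numbered libraries had deviations correlated at 0.346, 0.133 and 0.0212 across genes, so the numbers were not taken as pairs; with the replicate block 0 Notch genes were called (Hes1 -0.86, adjusted p = 0.251). Over all genes, 16 were higher and 42 lower, 5 and 7 with no filter, 33 and 59 with the library-set term, 26 and 37 in L0602 to L0605 alone, 0 and 0 with the replicate block, and 0 to 30 and 0 to 40 with 1 library left out; the cause of these shifts was not tested. Genes under about 1 FPKM are limited by depth that is unknown here.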

Other observations

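A pair of pathway genes that did not pass the filter on low values had separate groups; both were named after their values were seen. Dtx1, a Deltex ubiquitin ligase known as a Notch-induced gene in lymphocytes, was at 0.628, 1.08 and 0.656 FPKM in wild type and at 0.335, 0.0976 and 0.105 FPKM in knockout (log2 difference -0.60 with no filter, SE 0.13, limma adjusted p = 0.228). Dlk1, a Delta-like protein of fetal liver that is imprinted, was at 0.268, 0.116 and 0.235 FPKM in wild type and at 0.700, 1.67 and 1.48 FPKM in knockout (0.90 with no filter, SE 0.19, adjusted p = 0.202). Neither passed, and at these levels the values rest on few fragments.

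Jag1 is near 1 FPKM, so its ratio to Dll1 also rests on few fragments. The log2 ratio of Dll1 to Jag1 was 2.10, 1.66 and 0.604 in wild type and 2.38, 2.38 and 2.12 in knockout (exact permutation p = 0.1, the smallest that 3 against 3 libraries can give). All knockout libraries lay above the wild-type ones, narrowly so for knockout replicate 3 and wild-type replicate 1, and no threshold was passed.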
